A study of Mus musculus with 2 samples.

Results

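The nuclear genes of oxidative phosphorylation were examined in peak lists of the assay for transposase-accessible chromatin (ATAC-seq) from the organ of Corti. Members were protein-coding autosomal genes of the GENCODE vM21 annotation (GRCm38) whose symbol begins with Nduf and a subunit letter and number, Sdha to Sdhd, Uqcr, Cox4 to Cox8, or Atp5. The rule found 82 gene entries of 20807, with 81 distinct symbols, since Atp5o has 2 entries. By symbol, 35 belonged to complex I, 4 to complex II, 8 to complex III, 17 to complex IV and 18 to complex V. Ndufa4 and Ndufa4l2 were counted with complex I because of their symbols, although NDUFA4 protein is now placed in complex IV.

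The 2 libraries came from organs of Corti of neonatal P2 mice, 1 labelled WT and 1 labelled Bmi1-/-. Both genotypes were littermates from matings of Bmi1+/- mice that carry the FVB.129P2-Bmi1tm1Brn allele, a knockout allele, backcrossed to C57BL/6J. Animals of a genotype were pooled into 1 library, so there were no replicates, and no difference between genotypes could be set against the spread between mice. The whole dissected organ was used, and in such a mixed tissue fewer cells of a type and less accessibility per cell cannot be told apart. Every peak name in each list carries the prefix of the other genotype, and the sources used here do not resolve this. The lists are therefore called labelled WT and labelled Bmi1-/-, and every direction below rests on those labels.

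Oxidative phosphorylation couples the transfer of electrons from NADH and succinate to oxygen, through complexes I to IV of the inner mitochondrial membrane, with the making of ATP by complex V, the ATP synthase. A minority of the subunits is encoded by mitochondrial DNA. The others are encoded by nuclear genes scattered over the chromosomes, are used in nearly every cell type, and are known targets of the transcription factors NRF1, GABP (of the ETS family), YY1 and the ERR receptors. Hair cells and the cells around them rely on mitochondrial ATP. Some complex IV and complex I subunits also have isoforms used mainly in muscle, testis or lung.

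The promoters of a few members show what these start sites look like. Each stretch runs from 120 bases before to 20 bases after a RefSeq start on GRCm38.p6, read 5′ to 3′ on the strand of the gene. Capitals mark letters that match, on either strand, a motif of NRF1 (GCGCANGCG), ETS factors (CCGGAAG), YY1 (AAGATGGC), ERR (AAGGTCA) or NFY (AGCCAAT). The first 2 are Atp5g1 (chr11:96075612-96075751, minus strand) and Atp5g2 (chr15:102671028-102671167, minus strand), which had the strongest member peaks labelled Bmi1-/- and labelled WT, respectively. Both encode the membrane c subunit of ATP synthase and give the same mature protein.
Atp5g1: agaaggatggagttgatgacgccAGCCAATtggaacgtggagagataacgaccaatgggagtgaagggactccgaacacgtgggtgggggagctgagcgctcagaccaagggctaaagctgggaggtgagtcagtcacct
Atp5g2: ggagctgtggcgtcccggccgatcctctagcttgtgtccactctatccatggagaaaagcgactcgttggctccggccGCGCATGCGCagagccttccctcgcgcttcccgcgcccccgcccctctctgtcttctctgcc

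NRF1 letters recurred in members of different complexes. They stood once in Ndufa5 (chr6:24527671-24527810, minus strand), at 2 places in Ndufb4 (chr16:37654349-37654488, minus strand), and at 3 places in Sdha (chr13:74350221-74350360, minus strand), the flavoprotein of succinate dehydrogenase. Cox6a1 (chr5:115348939-115349078, minus strand) held NRF1 letters and an ETS match. A peak of the list labelled Bmi1-/- overlapped all 4 stretches, and a peak of the list labelled WT overlapped all but that of Sdha.
Ndufa5: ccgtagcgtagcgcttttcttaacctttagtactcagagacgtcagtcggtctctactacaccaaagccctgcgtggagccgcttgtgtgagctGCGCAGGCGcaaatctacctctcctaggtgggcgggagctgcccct
Ndufb4: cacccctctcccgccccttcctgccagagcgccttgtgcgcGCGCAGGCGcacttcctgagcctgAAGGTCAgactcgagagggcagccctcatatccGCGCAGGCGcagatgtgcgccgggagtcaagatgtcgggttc
Sdha: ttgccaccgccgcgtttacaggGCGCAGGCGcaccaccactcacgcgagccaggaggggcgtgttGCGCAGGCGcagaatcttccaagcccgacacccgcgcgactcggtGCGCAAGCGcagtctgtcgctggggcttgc
Cox6a1: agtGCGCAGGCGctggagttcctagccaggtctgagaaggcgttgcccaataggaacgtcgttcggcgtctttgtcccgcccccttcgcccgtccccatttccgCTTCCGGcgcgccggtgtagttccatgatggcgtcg

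The last 3 stretches show a member with a close neighbour and members without a peak. Atp5j (chr16:84834957-84835096, minus strand), the coupling factor F6 of ATP synthase, holds a YY1 and an ETS match. A GENCODE start of Atp5j lies 93 bp from that of Gabpa, which is transcribed the other way and encodes an ETS factor. The printed stretch belongs to another start and lies downstream of the Gabpa start, so its matches are not between those starts. Ndufs3 (chr2:90904702-90904841, minus strand), a core subunit of complex I, has 2 ETS matches but no promoter peak in either list. Cox7b2 (chr5:71548186-71548325, minus strand), a testis isoform of complex IV, has none of the 5 motifs in this stretch and no promoter peak in either list.
Atp5j: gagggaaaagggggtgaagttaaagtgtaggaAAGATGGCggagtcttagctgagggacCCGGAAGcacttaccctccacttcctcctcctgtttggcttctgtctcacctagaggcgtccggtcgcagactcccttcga
Ndufs3: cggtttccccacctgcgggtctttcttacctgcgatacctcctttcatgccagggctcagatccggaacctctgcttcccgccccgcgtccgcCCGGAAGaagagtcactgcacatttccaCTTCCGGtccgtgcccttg
Cox7b2: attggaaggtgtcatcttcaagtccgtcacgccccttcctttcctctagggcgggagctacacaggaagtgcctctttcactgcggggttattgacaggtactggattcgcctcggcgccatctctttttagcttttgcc

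The lists held 77596 peaks labelled WT and 100431 labelled Bmi1-/- on chromosomes 1 to 19, X and Y. They contain no read totals, so depth is known only through the background solved from the deposited values, which was most often 6.32 in the library labelled WT and 8.04 in the library labelled Bmi1-/-, a ratio of 1.27. At those backgrounds the smallest pileup that was called was 13 and 15 stacked reads or fragments. Where the local background was higher, a call needed a larger pileup, and a gene without a peak is not shown to be closed. Over Bmi1 itself and 3000 bp upstream the list labelled WT had 1 peak and the other list 4. The deleted part of the gene is not given in the sources used here, so these peaks do not check the labels. Promoter peaks at marker genes were present for 8 of 10 hair cell genes labelled WT and 7 of 10 labelled Bmi1-/-, and for 9 of 10 and 7 of 10 supporting cell genes. For neuronal genes they numbered 5 of 10 labelled WT and 9 of 10 labelled Bmi1-/-, the same direction as the members below, and their part in those values was not tested.

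Most members had accessible promoters. A promoter peak was a peak centred within 3000 bp of the start of any transcript of the gene. In the list labelled WT, 57 of 82 members had one, which is 69.5% (95% interval 58.4% to 79.2%), against 61.5% of all 20807 genes. In the list labelled Bmi1-/- there were 71, which is 86.6% (77.3% to 93.1%), against 70.6% of all genes. Peaks in both lists were found for 52 members (63.4%, 52% to 73.8%), against 55.2% of all genes. Neither list had one for 6 members (7.32%, 2.73% to 15.2%), against 23.2% of all genes. Intervals are exact binomial, cover counting error only and treat genes as independent, which neighbouring genes that share a peak are not.

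Members with a peak in a single list were mostly in the one labelled Bmi1-/-. They numbered 19 (23.2%, interval 14.6% to 33.8%), where 15.4% of all genes were in this class, so that the share of all genes lay inside the interval. Another 5 members (6.1%) had a peak in the list labelled WT only, close to the 6.23% of all genes. Overlapping promoter peaks in both lists were present for 41 members (50%, 38.7% to 61.3%), against 42.1% of all genes. With as many peaks taken from the longer list as the shorter one holds, 17 members (20.7%, 12.6% to 31.1%) had a peak labelled Bmi1-/- only and 7 (8.54%, 3.5% to 16.8%) labelled WT only. Over all genes these shares were 13.4% and 8.35%, inside both intervals.

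**Figure D1:**
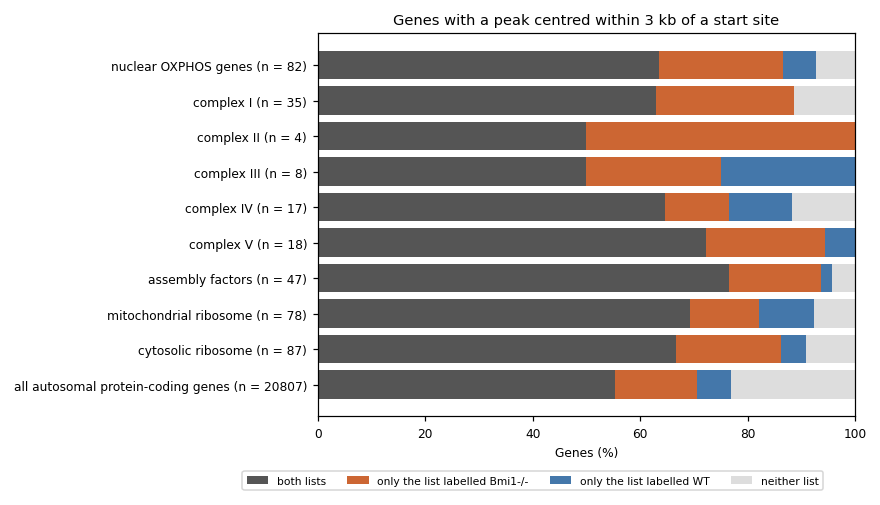
Share of genes (x axis, %) with a promoter peak in both lists, in 1 list or in neither, for the members, each complex, 3 other gene lists and all autosomal protein-coding genes, with n in brackets. Neither list had a peak for 7.32% of the members and for 23.2% of all genes.

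The strength of each member's strongest promoter peak was ranked by −log10 p within its own list, so that a percentile of 100 would be the strongest peak of that list. Members with a peak had a median percentile of 70.8 (61.1 to 81) in the list labelled WT, against 76.9 over all genes with a promoter peak there. The median was 91.4 (87.5 to 93.8) in the list labelled Bmi1-/-, against 87.4 over all genes. The value of all genes lay inside the members' interval in the first list and just below it in the second. Of the 76 members with a peak in either list, 56 ranked higher in the list labelled Bmi1-/- or had their only peak there (73.7%, 62.3% to 83.1%). The same held for 68.6% of all genes, which is inside that interval.

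**Figure D2:**
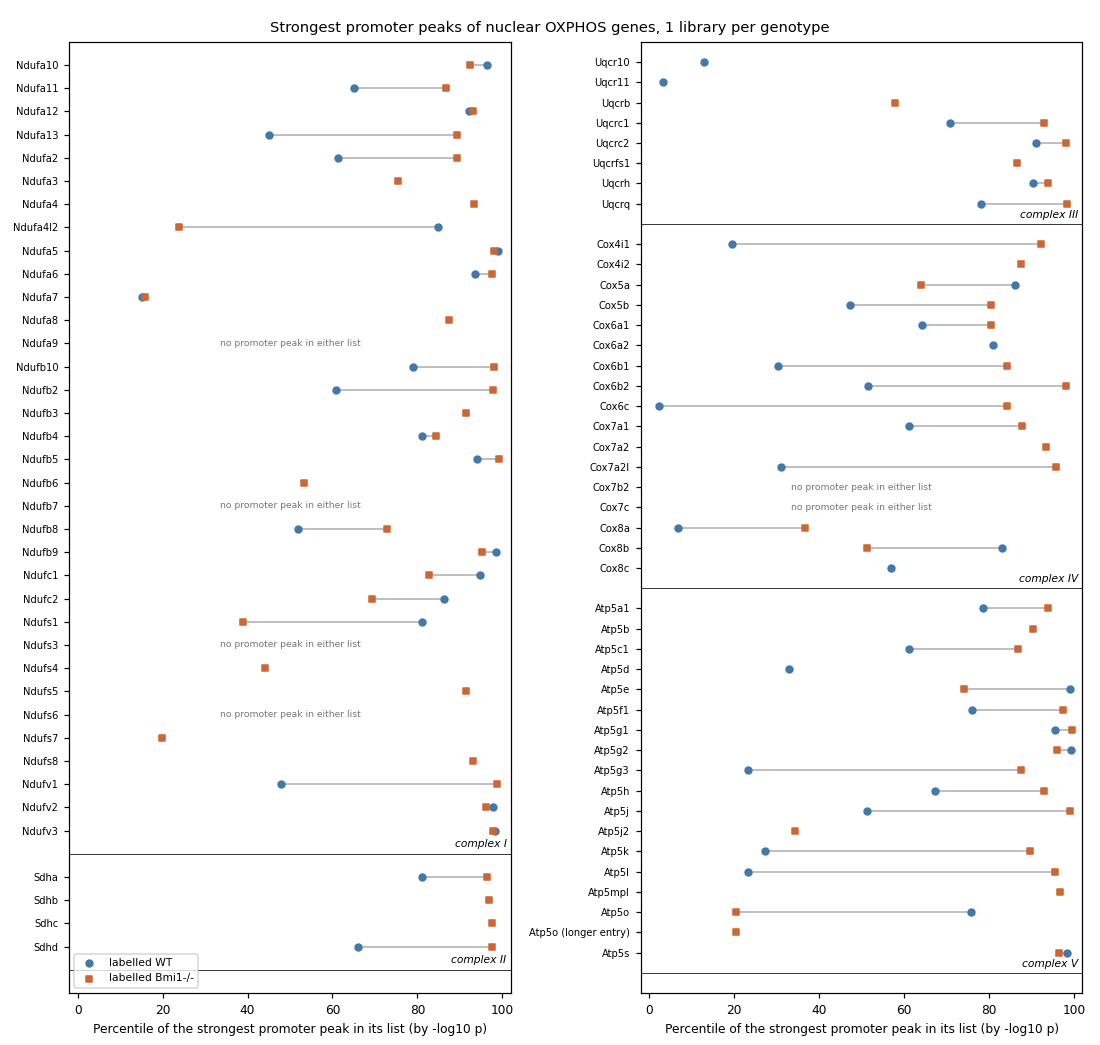
Percentile of the strongest promoter peak of the members (rows, by complex, 1 member not drawn) within its own list, with circles for the list labelled WT, squares for the list labelled Bmi1-/- and a line joining both. Most lines have the square to the right, and for 6 members neither list has a peak.

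A stricter limit left fewer members. A −log10 q of at least 5 was reached by 4 members (4.88%, 1.34% to 12%) in the list labelled WT, which are Ndufa5, Ndufb9, Atp5e and Atp5g2, and 4.37% of all genes reached it. In the list labelled Bmi1-/- 22 members (26.8%, 17.6% to 37.8%) reached it, against 18.5% of all genes. Both shares of all genes lay inside the intervals. These were 8 genes of complex I, all 4 of complex II, 2 of complex III, 2 of complex IV and 6 of complex V. The strongest promoter peak of any member was at Atp5g1 in the list labelled Bmi1-/-, with a −log10 p of 18.6, whereas the highest promoter value over all genes in that list was 153.

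Complex I takes electrons from NADH, and 22 of its 35 members had a promoter peak labelled WT and 31 one labelled Bmi1-/-. All 22 with a peak labelled WT also had one labelled Bmi1-/-, and 9 had only the latter. Among the core subunits, which carry the flavin and the iron-sulfur clusters and have bacterial relatives, Ndufs1, Ndufv1 and Ndufv2 had a peak in both lists, Ndufs7 and Ndufs8 only in the list labelled Bmi1-/-, and Ndufs3 in neither. Of these named core genes, Ndufv2 alone had overlapping peaks.

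Ndufv1, which binds NADH and the flavin, ranked at percentile 48 labelled WT (−log10 p of 4.19, pileup 21) and at percentile 98.7 labelled Bmi1-/- (13.1, pileup 40). Its partner Ndufv2 was high in both, at percentiles 97.8 and 96.2. Ndufs1, the largest core subunit, went the other way, at percentile 81 labelled WT and percentile 39 labelled Bmi1-/-. Its strongest peaks did not overlap and lay at different starts. The peak labelled WT (chr1:63148400-63148652) was centred 803 bp upstream of a start. The peak labelled Bmi1-/- (chr1:63176435-63176805) was centred 43 bp downstream of another. A weaker peak labelled WT, at percentile 52.7, lay near the latter start, at chr1:63177010-63177383.

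The strongest accessory genes were Ndufa5 and Ndufb9 in the list labelled WT, and Ndufb5 with core Ndufv1 in the list labelled Bmi1-/-. Ndufa5 had a −log10 p of 10.2 labelled WT and 11.3 labelled Bmi1-/-, at percentiles 98.9 and 98. Ndufb9 had 9.63 and 8.4. Both were thus above percentile 95 in each list. Ndufb5 had 7.04 labelled WT (percentile 94) and 15 labelled Bmi1-/- (percentile 99.1). Ndufa10, Ndufa12, Ndufa6 and Ndufv3 were likewise above percentile 92 in both lists.

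The 9 complex I genes with a promoter peak only in the list labelled Bmi1-/- were not all weak there. Ndufa4, Ndufb3, Ndufs5 and Ndufs8 stood at percentiles 93.4, 91.4, 91.4 and 93. Ndufa8 stood at 87.5, Ndufa3 at 75.4, Ndufb6 at 53.3, Ndufs4 at 44 and Ndufs7 at 19.9. Ndufs4, an accessory subunit whose loss causes a Leigh-like disease, was thus a weak call of 20 stacked reads or fragments. The genes with no promoter peak in either list were Ndufs3 and the accessory Ndufa9, Ndufb7 and Ndufs6.

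Complex II passes electrons from succinate to quinone, and all its subunits are nuclear. Its 4 genes all had a promoter peak labelled Bmi1-/-, between percentiles 96.4 and 97.6, and all 4 passed a −log10 q of 5 there. Sdha, the flavoprotein, had 20 reads or fragments at the summit labelled WT (95% Poisson interval 12.2 to 30.9) and 30 labelled Bmi1-/- (20.2 to 42.8). Sdhd, a membrane anchor, had 19 (11.4 to 29.7) and 35 (24.4 to 48.7). The intervals overlapped for both genes. Sdhb, the iron-sulfur subunit, and Sdhc, the other anchor, had no promoter peak labelled WT and stood at percentiles 96.8 and 97.5 labelled Bmi1-/-.

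Other genes lie close to some of these. The start of Sdhd is 98 bp from that of Timm8b, and the start of Sdha is 29 bp from that of Ccdc127. For Sdhd the nearest start to the peak was that of Timm8b in both lists. A peak labelled WT lay 3315 bp from the start of Sdhb, just outside the limit, with a −log10 p of 5.03.

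Complex III hands electrons to cytochrome c, and 6 of its 8 genes had a promoter peak in each list, with 4 in both. Uqcrc1 and Uqcrc2, the core proteins, and the small subunits Uqcrh and Uqcrq had peaks in both. Uqcrc2 stood at percentile 91 labelled WT and percentile 98 labelled Bmi1-/-, Uqcrq at percentiles 78.1 and 98.3, and Uqcrh at percentiles 90.4 and 93.8. Uqcrfs1, the Rieske iron-sulfur protein, and Uqcrb had a peak only in the list labelled Bmi1-/-, at percentiles 86.6 and 57.8. Uqcr10 and Uqcr11 had one only in the list labelled WT, at percentiles 12.8 and 3.26, so that both were weak calls. Uqcrc2 had the most promoter peaks of any member labelled WT, with 4, and Uqcrh the most labelled Bmi1-/-, also with 4.

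Complex IV reduces oxygen, and 13 of its 17 genes had a promoter peak in each list, with 11 in both. Its median percentile was 51.6 (19.5 to 81) labelled WT and 84.3 (64 to 93.4) labelled Bmi1-/-, the lowest of the complexes in both lists. The first interval holds the medians of complexes II, III and V (73.5, 74.5 and 71.4), and that of complex I (83) lay above it. The second holds those of complexes I and V (91.4 and 92.9), with complex III at its edge (93.4) and complex II (97.1) above it. Cox5a, one of the first subunits to join the mitochondrially encoded core, was the strongest of complex IV labelled WT (−log10 p of 5.95, percentile 86). It stood at percentile 64 labelled Bmi1-/-. Cox6b2, a testis isoform, was the strongest of complex IV labelled Bmi1-/-, with 35 reads or fragments at the summit (24.4 to 48.7), and had 21 (13 to 32.1) labelled WT. Its peaks overlapped and were centred within 13 bp of a start in both lists. Cox5b stood at percentiles 47.2 and 80.4. Cox7c had no promoter peak in either list.

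Isoforms were grouped by their known use. Of the 10 widely used forms (Ndufa4, Cox4i1, Cox6a1, Cox6b1, Cox7a2, Cox7a2l, Cox8a and Atp5g1 to Atp5g3), 8 had a peak labelled WT and all 10 had one labelled Bmi1-/-, with 9 ranking higher there. Of the 8 tissue-restricted forms (Ndufa4l2, Cox4i2, Cox6a2, Cox6b2, Cox7a1, Cox7b2, Cox8b and Cox8c), 6 had a peak labelled WT and 5 one labelled Bmi1-/-, with 3 of 7 ranking higher there. These counts are small and the difference between both kinds was not tested.

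Cox4i1, the common form of subunit 4, was at percentile 19.5 labelled WT, with a peak 2721 bp from a start. It was at percentile 92.2 labelled Bmi1-/-, 75 bp from another start. There the nearest start was that of Emc8, 101 bp from that of Cox4i1. Cox4i2, the lung form, had a peak labelled Bmi1-/- only, at percentile 87.6. Cox6a1, the common form of subunit 6a, had 20 reads or fragments labelled WT and 26 labelled Bmi1-/-. Cox6a2, the heart and skeletal muscle form, had a peak labelled WT only, at percentile 81. A stronger peak labelled Bmi1-/-, at percentile 96.9, was centred 3025 bp from its start and missed the limit. Cox6b1 had peaks in both lists that did not overlap, at percentiles 30.2 and 84.3.

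Among the remaining forms, Cox7a2, the common one, had a peak labelled Bmi1-/- only, 33 bp from a start at percentile 93.4. Cox7a2l, which joins complexes III and IV in supercomplexes, was at percentile 31.1 labelled WT and percentile 95.8 labelled Bmi1-/-. Cox7a1, the heart and muscle form, had peaks in both lists but only near the edge of the window, at 2621 and 2997 bp. Cox8a was weak in both lists, at percentiles 6.68 and 36.7. Cox8b, the muscle form, ranked higher labelled WT, at percentile 83 against 51.2. Cox8c, a testis form, had a peak labelled WT only, at percentile 56.8. Ndufa4l2, a paralog induced by hypoxia, had peaks in both lists on opposite sides of the start, 2045 bp upstream at percentile 84.9 labelled WT and 1887 bp downstream at percentile 23.9 labelled Bmi1-/-.

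Complex V makes ATP. Of its 18 gene entries, 14 had a promoter peak labelled WT and 17 one labelled Bmi1-/-, with 13 in both, and each entry had one in at least 1 list. Among the 5 subunits of the catalytic F1 head, Atp5a1, Atp5c1 and Atp5e had peaks in both lists. Atp5b, the catalytic beta subunit, had one labelled Bmi1-/- only, 14 bp from a start at percentile 90.4. Atp5d had one labelled WT only, at percentile 33. It was centred 1417 bp upstream of Atp5d and 137 bp from the start of Cbarp. Atp5e was the only head gene with a summit pileup that was lower in the library labelled Bmi1-/-, with 28 (18.6 to 40.5) labelled WT and 23 (14.6 to 34.5) labelled Bmi1-/-. It had the second strongest peak of complex V labelled WT, at percentile 99, and stood at percentile 74.1 labelled Bmi1-/-.

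The 3 genes of the c subunit, which forms the rotor ring in the membrane, each had overlapping peaks in both lists. Atp5g1 had 25 reads or fragments at the summit labelled WT (16.2 to 36.9) and 50 labelled Bmi1-/- (37.1 to 65.9), at percentiles 95.6 and 99.6. These peaks lay at chr11:96075431-96076117 labelled WT and chr11:96075185-96076169 labelled Bmi1-/-, over the start of the gene and the stretch printed above. Atp5g2 had 32 (21.9 to 45.2) and 34 (23.5 to 47.5), at percentiles 99.4 and 95.9. Atp5g3 had 16 (9.15 to 26) and 25 (16.2 to 36.9), at percentiles 23.3 and 87.5. The promoters printed above for Atp5g1 and Atp5g2 differ in their motifs, with NFY letters in the first and NRF1 letters in the second.

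Of the other complex V genes, Atp5j had 19 reads or fragments labelled WT (11.4 to 29.7) and 46 labelled Bmi1-/- (33.7 to 61.4), the highest ratio of any member, 2.42. The strongest peaks compared there did not overlap and lay at different starts. The one labelled WT was centred 965 bp upstream of a start, and the one labelled Bmi1-/- 70 bp downstream of another. A weaker peak labelled WT, with a pileup of 20, did overlap the strongest peak labelled Bmi1-/-. Gabpa shared this peak labelled Bmi1-/-, with the same −log10 p of 14.9. Atp5f1, the b subunit of the stator, stood at percentiles 76 and 97.3. Atp5l ranked at percentiles 23.3 and 95.6, and Atp5k at percentiles 27.2 and 89.7. Atp5mpl and Atp5j2 had a peak labelled Bmi1-/- only, at percentiles 96.8 and 34.2. Atp5o, which links head and stator, ranked at percentile 75.7 labelled WT and percentile 20.5 labelled Bmi1-/-, and its longer overlapping entry had the latter peak only.

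The largest differences in percentile between lists need the pileups beside them. Among members with a peak in both lists, the widest gaps toward the list labelled Bmi1-/- were at Cox6c (82), Cox4i1 (72.7), Atp5l (72.4), Cox7a2l (64.7) and Atp5g3 (64.2). At Cox6c the pileup was 14 labelled WT and 24 labelled Bmi1-/-, and at Atp5l it was 16 and 29. The widest gaps toward the list labelled WT were at Ndufa4l2, Atp5o, Ndufs1, Cox8b and Atp5e. The Poisson intervals of the pileups overlapped at all 10 genes. At Cox6c, Cox4i1, Ndufa4l2, Atp5o and Ndufs1 the strongest peaks of both lists did not overlap, so these gaps compare different sites.

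Summit pileups were mostly higher in the library labelled Bmi1-/-, as was its background. Over the 52 members with a peak in both lists, the ratio of summit pileups, labelled Bmi1-/- over labelled WT, ran from 0.821 to 2.42 with a median of 1.42, beside a ratio of backgrounds of 1.27. The median over all genes with both peaks was 1.35. The pileup was higher labelled Bmi1-/- at 50 of 52 members (96.2%), against 90.6% of all such genes. The ratio of pileups exceeded the ratio of backgrounds at 35 members (67.3%), against 60.4% of all such genes. The Poisson intervals of both libraries were apart at 2 members (3.85%), Atp5g1 and Atp5j. At Atp5j the peaks compared did not overlap. Over all genes with both peaks, the intervals were apart at 2.25%. A share this close to the background is no result about the members.

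**Figure D3:**
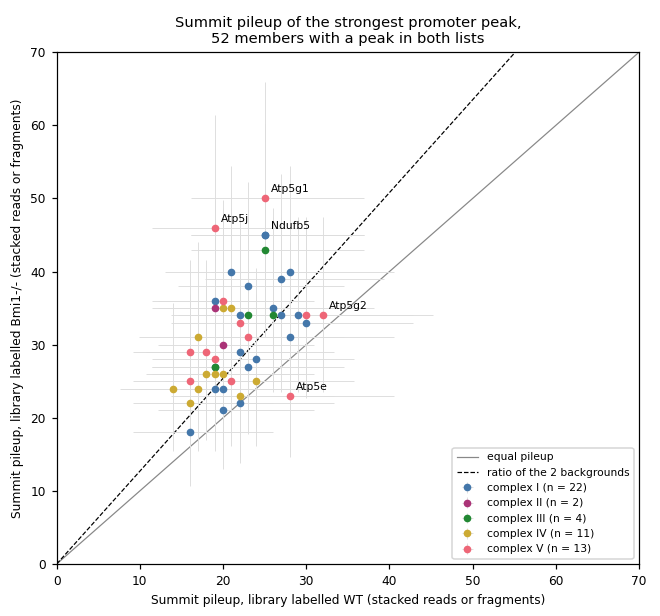
Summit pileup of the strongest promoter peak in the library labelled WT (x axis) and in the library labelled Bmi1-/- (y axis), in stacked reads or fragments, for 52 members coloured by complex, with 95% Poisson intervals for counting error only. Most points lie above the solid line of equal pileup and scatter around the dashed line, the background ratio of 1.27.

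Peaks of the members lay close to their start sites. The median distance from the centre of the strongest peak to a start was 104 bp labelled WT and 140 bp labelled Bmi1-/-, against 269 bp and 182 bp over all genes. Related gene lists described below had like values, so this is not particular to the members. They were 124 and 110 bp for assembly factors, 147 and 160 bp for the mitochondrial ribosome and 111 and 113 bp for the cytosolic one. Only 6 of 57 members (10.5%) labelled WT and 9 of 71 (12.7%) labelled Bmi1-/- had that centre over 1000 bp away, against 26.4% and 19.6% of all genes. Among the far ones were Ndufa7 and Cox7a1 labelled WT and Ndufb10, Ndufc2 and Cox7a1 labelled Bmi1-/-.

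**Figure D4:**
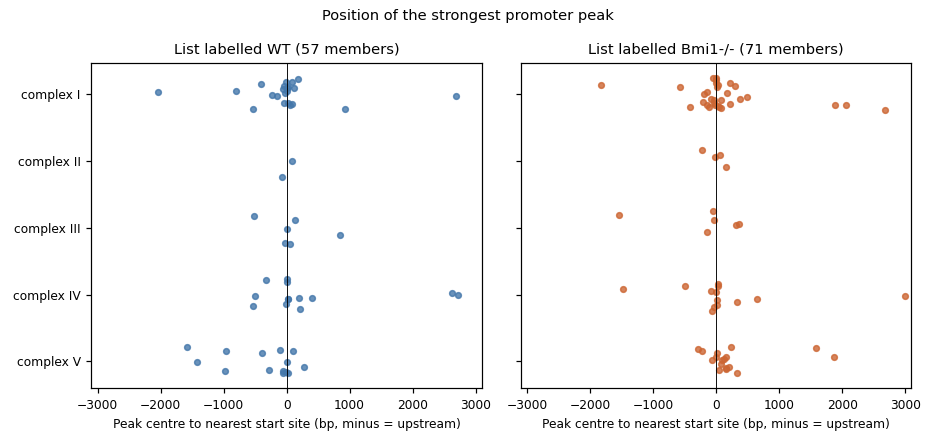
Distance in bp from the nearest start of the gene to the centre of its strongest promoter peak (x axis, minus is upstream), 1 point per member and complex, for the list labelled WT (57 members) and the list labelled Bmi1-/- (71 members). Points cluster at the start, with medians of 104 and 140 bp, and points within a row are spread vertically for legibility only.

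The strongest peaks of both lists overlapped by at least 1 bp at 36 of 52 members (69.2%), against 55.4% of all genes with peaks in both lists. This difference was not tested. In gene lists described below, the same held at 28 of 36 assembly factors, 35 of 54 mitochondrial ribosome genes and 39 of 58 cytosolic ribosome genes. At the other 16 members the strongest peaks did not overlap. Among these were Ndufa13, Ndufa4l2, Ndufa7, Ndufb10, Ndufc2, Ndufs1, Ndufv1, Uqcrh, Cox4i1, Cox6b1, Cox6c, Atp5a1, Atp5j, Atp5k and Atp5o. Of the 82 promoter peaks of members labelled WT, 57.3% (45.9% to 68.2%) overlapped a peak of the other list, and of the 113 labelled Bmi1-/- 42.5% (33.2% to 52.1%) did. The shares over all promoter peaks were 48.8% and 36.7%.

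Many members share their promoter with a neighbour. For 28 of 82 members (34.1%, interval 24% to 45.4%) the start of another protein-coding gene on the opposite strand, pointing away, lay within 1000 bp, against 2350 of 20807 genes (11.3%). The rule used only symbols, so this arrangement is a property of the members that it did not choose. Examples are Atp5j with Gabpa, Cox4i1 with Emc8, Atp5a1 with Haus1 (70 bp), Ndufa7 with Rps28 (10 bp) and Ndufs6 with Mrpl36 (51 bp). In a count made for members only, without a share over all genes, some strongest peaks were nearer to another gene's start than to the member's. This held at 6 of 57 members labelled WT and 13 of 71 labelled Bmi1-/-. At Ndufb10, for example, the peak labelled Bmi1-/- was 88 bp from the start of Rps2, a ribosomal protein gene, and 2674 bp from that of Ndufb10.

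Over all genes, 84.2% of those head to head and 58.6% of the others had a promoter peak labelled WT, and 93.4% and 67.7% had one labelled Bmi1-/-. Among the members the shares were 75% and 66.7% labelled WT (21 of 28 and 36 of 54) and 85.7% and 87% labelled Bmi1-/- (24 of 28 and 47 of 54). The members that are not head to head thus had a higher share of peaks labelled Bmi1-/- than such genes in general (87% and 67.7%), and the head-to-head members a lower one (85.7% and 93.4%). Neither difference was tested.

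RefSeq promoter windows, 250 bases before to 50 bases after a start on GRCm38.p6, were matched to 65 of the 81 member symbols, with 70 windows. NRF1 letters were in 21 of them (30%, interval 19.6% to 42.1%), against 8.75% of 20085 windows of autosomal protein-coding genes. ETS letters were in 22.9% against 11.9%, YY1 letters in 14.3% against 3.06%, and ERR letters in 11.4% against 4.03%. Each of these 4 background shares lay below the interval of the members. In NFY (12.9% against 9.17%), SP/KLF (GGGCGG, 40% against 47%) and TATA letters (TATAAA, 11.4% against 12.7%) the background lay inside it. Both strands were searched, an NRF1 site can match on both strands because it is nearly its own reverse complement, and a match describes letters, not binding. Within 100 bp of the summits of the strongest promoter peaks, most of these differences lay within the counting error. There NRF1 letters stood at 8.89% (2.48% to 21.2%) of member summits labelled WT and 16.1% (7.62% to 28.3%) labelled Bmi1-/-, against 5.33% and 6.79% over all genes. ETS letters stood at 13.3% (5.05% to 26.8%) and 7.14% (1.98% to 17.3%), against 5.69% and 7.51%. YY1 letters stood at 6.67% (1.4% to 18.3%) and 7.14% (1.98% to 17.3%), against 1.83% and 2.11%, and ERR letters at 15.6% (6.49% to 29.5%) and 3.57% (0.435% to 12.3%), against 2.63% and 2.27%. Of these 4 motifs, the share over all genes lay below the interval for NRF1 labelled Bmi1-/- and ERR labelled WT only. NFY letters stood at 8.89% (2.48% to 21.2%) and 16.1% (7.62% to 28.3%) of member summits, against 4.58% and 6.3%. For NFY the share over all genes lay below the interval labelled Bmi1-/- and inside that labelled WT.

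**Figure D5:**
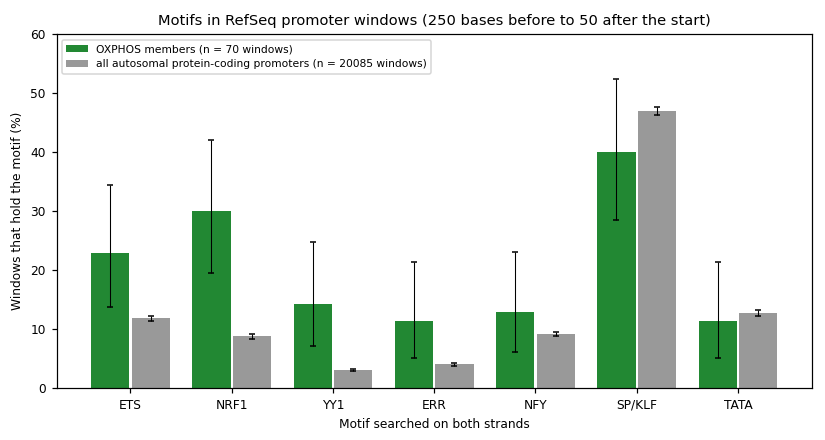
Share of RefSeq promoter windows (y axis, %) that hold each motif on either strand, for 70 member windows and 20085 windows of autosomal protein-coding genes, with 95% exact binomial intervals. NRF1 letters stand in 30% of the member windows and 8.75% of all windows, and SP/KLF letters in 40% and 47%.

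At least 1 of the ETS, NRF1 and YY1 motifs was in 39 of 70 member windows (55.7%), against 21% of all windows. All 10 YY1 matches of members lay between 100 bases before and 50 after the start, as did 68% of such matches over all windows. Only those of Atp5j and Atp5f1 began before the start. The others lay wholly after it, from base 23 to base 46, on the strand of the gene. Members without a window in the table included Atp5a1, Atp5mpl, Cox4i1, Cox4i2, Cox6a2, Cox6c, Cox8c, Ndufa2, Ndufa4l2, Ndufb9, Ndufs1, Sdhc, Uqcrb, Uqcrc2 and Uqcrq. The median GC content was 57.5% in member windows and 57% in all, and the ratio of observed to expected CG pairs was 0.801 and 0.586.

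Whether windows with these letters overlapped a peak was counted next. Over all windows, a peak labelled Bmi1-/- overlapped 74.5% of those with an ETS, NRF1 or YY1 match and 37.8% of those without. In member windows the shares were 71.8% (55.1% to 85%) and 61.3% (42.2% to 78.2%). For peaks labelled WT they were 43.6% and 45.2% in members, and 53% and 26.3% over all windows. NFY letters were in 9 member windows, and a peak labelled Bmi1-/- overlapped all 9 (66.4% to 100%), as it did all 8 windows with ERR letters (63.1% to 100%). Such a peak overlapped 67.1% of all member windows whatever their letters, which is inside both intervals. A peak labelled WT overlapped 6 of the 9 and 5 of the 8. Over all genes, a peak labelled Bmi1-/- overlapped 59.5% of windows with NFY letters and 29.1% of those with ERR letters. In members it overlapped 25 of 28 windows with SP/KLF letters and 2 of 8 with TATA letters. Of the 10 member windows with YY1 letters it overlapped 5 (50%, 18.7% to 81.3%), against 67.8% of such windows over all genes.

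The complexes need factors that build them, and these were compared from lists of related genes. Of 47 assembly factors, 37 had a promoter peak labelled WT and 44 one labelled Bmi1-/-, with 36 in both. Examples in both lists are Acad9, Atpaf1, Atpaf2 and Bcs1l. Bcs1l, which inserts the Rieske protein into complex III, stood at percentiles 98.9 and 99.8. Coa7, Ecsit, Ndufaf1 and Ndufaf4 had a peak labelled Bmi1-/- only, and Cox17 and Nubpl had none in either list. The median percentiles of the assembly factors were 84.9 and 90.7.

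Among 13 regulators of nuclear respiratory genes, 11 had a promoter peak labelled WT and 12 one labelled Bmi1-/-. Esrra, which encodes the receptor ERR alpha, was strong in both lists, at percentiles 98.9 and 99.4, and Nrf1 stood at percentiles 86 and 97. Ppargc1a, the coactivator PGC-1 alpha, had only a weak peak labelled WT, at percentile 9.68. The 3 X-linked subunits were outside the rule, and of these Ndufa1 and Ndufb11 had a peak labelled Bmi1-/- only and Cox7b none. Cycs, Cyc1 and Ndufab1, which the symbol rule misses, had promoter peaks in both lists.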

How the data were processed

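The organ of Corti of WT and Bmi1-/- mice was profiled by ATAC-seq, with 1 library of pooled animals per genotype, grouped by genotype as in GEO's labels. The authors trimmed the paired-end reads, checked them with FastQC, mapped them with BWA-MEM to mm10 and used MACS2 to call peaks per library. Versions, options and the handling of duplicate or multiply mapped reads are not given in the sources used here. For each peak the authors deposited positions and a fold enrichment, the ratio of summit pileup to local background after 1 is added to both. They also deposited −log10 p from a Poisson model, its −log10 q within the library, and a score made from −log10 p, not used here. The lowest deposited −log10 p was 2.00 labelled WT and 2.01 labelled Bmi1-/-, so many peaks have a high q.

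Placed peaks (chromosomes 1 to 19, X, Y) were given to genes by their centre, within 3000 bp of any transcript start of GENCODE vM21. Pileup and background were solved from fold enrichment and −log10 p, which fitted a whole pileup to 100% of peaks within 0.001 of the deposited −log10 p, and were checked on simulated peaks. Promoter windows came from RefSeq (GRCm38.p6). Python 3.11.15, pandas 2.3.3, numpy 2.4.6, SciPy 1.17.1, pysam 0.24.0, matplotlib 3.10.9 and bedtools 2.31.1 were used. Peaks overlapped where they shared at least 1 bp. With no replicates, no test between genotypes was made, and intervals (95%) cover counting error only.

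Members and lists were chosen with earlier results of these data known. Genes were named by rule: those with a peak in 1 list or neither, the 2 strongest per complex and list, the 5 widest percentile gaps in each direction, isoform sets, genes whose strongest peaks do not overlap, and those with most peaks. Others were named after their values were seen. Promoters without a RefSeq window were not searched. Some items are not reported by name here but stay in all counts. Alternatives are listed in the closing section.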

Additional observations from a re-analysis of the deposited data

How the results depend on the processing

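Results were recomputed with −log10 q thresholds of 1.3, 5 and 10, with as many peaks from either list, with a limit of 1000 bp, the summit in place of the centre, basic transcripts only and, for shared peaks, a reciprocal overlap of 50%. Leaving out the thresholds of 5 and 10, members with a promoter peak numbered 43 to 57 labelled WT and 64 to 71 labelled Bmi1-/-, those with a peak in 1 list 4 to 7 and 17 to 25, and overlapping peaks 29 to 41. Over all genes, the shares with a peak in 1 list ran from 5.8% to 8.35% labelled WT only and from 13.4% to 21.4% labelled Bmi1-/- only. For overlapping peaks the alternatives were counted in members only. Median percentiles of members ran from 70.8 to 81 labelled WT and from 90.1 to 92.9 labelled Bmi1-/-. The share of members ranking higher labelled Bmi1-/- ran from 68.9% to 75%, against 62.2% to 70.8% of all genes. With the q threshold at 5, members with a peak were 4 labelled WT and 22 labelled Bmi1-/-, with 2 overlapping. Of the 82 members, 2 (2.44%, 0.297% to 8.53%) had one labelled WT only, against 0.995% of all genes. Another 20 (24.4%, 15.6% to 35.1%) had one labelled Bmi1-/- only, against 15.1% of all genes, just below the interval. The medians of members were 98.9 and 97.6, and the share ranking higher labelled Bmi1-/- was 83.3% (all genes 85.2%). With the q threshold at 10, members with a peak were 0 labelled WT and 3 labelled Bmi1-/-, with 0 overlapping. These 3 had one labelled Bmi1-/- only (3.66%, against 4.21% of all genes), and 0 had one labelled WT only (0.0721% of all genes). The median labelled Bmi1-/- was 99.1 and the share ranking higher there 100% (all genes 94.4%). Over all genes, 4.37% labelled WT and 18.5% labelled Bmi1-/- had a promoter peak at the threshold of 5, and 0.5% and 4.64% at 10. Under the other settings these shares ran from 47.2% to 61.5% and from 62.4% to 70.6%. Fewer peaks pass the higher thresholds by construction. Within 100 bp of summits, NRF1 and ETS shares were lower than in promoter windows, at 8.89% (WT) and 16.1% (Bmi1-/-) for NRF1 and 13.3% and 7.14% for ETS, whereas ERR was higher labelled WT (15.6% against 11.4%) and NFY labelled Bmi1-/- (16.1% against 12.9%). With 1 library per genotype and labels that the peak names contradict, neither the size nor the direction of a difference between genotypes could be set against the spread between animals. No paired analysis was possible because each genotype has 1 library.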

Other observations

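Promoter peaks were also counted in other gene lists used in nearly all cells, with no test between lists. Of 78 genes of the mitochondrial ribosome, 62 (79.5%) had one labelled WT and 64 (82.1%) one labelled Bmi1-/-, with 54 in both. Of 87 genes of the cytosolic ribosome, 62 (71.3%) and 75 (86.2%) did, with 58 in both. The symbol rule of that list took 98 genes, of which 11 (S6 kinases and Rps19bp1) are not ribosomal proteins and were left out after the values were seen. Their median percentiles were 74 and 92.7 for the mitochondrial ribosome and 77.9 and 88.6 for the cytosolic one. Of 13 genes of the tricarboxylic acid cycle, 12 (92.3%) had a peak in each list and 11 in both. Citrate synthase (Cs), which opens the cycle, stood at percentiles 98.7 and 98.1. Among these 13, 7 ranked higher labelled Bmi1-/-.

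Markers of other cell types of the cochlea gave promoter peaks labelled WT and labelled Bmi1-/- for 5 and 5 of 8 glial genes, 5 and 5 of 8 mesenchymal genes, 4 and 2 of 8 genes of blood and macrophages, and 6 and 5 of 8 endothelial genes. In the same lists 57 (69.5%) and 71 (86.6%) of the 82 OXPHOS members had one. The markers' part in the values of the members was not tested.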
